A study of Mus musculus with 12 samples.

Results

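Metallothioneins and zinc transporters of the mouse striatum were followed as a set of 6 genes out of the 54532 genes counted. The set is defined by gene names and not by a threshold on measured values, though it was put together with earlier results of these data known. It holds the metallothioneins Mt1, Mt2 and Mt3, the zinc exporter Slc30a1, the metal importer Slc39a14 and the vesicular zinc transporter Slc30a3. All 6 had enough counts to be tested. The study is about SN-011, which blocks STING, an adaptor of the cytosolic DNA-sensing pathway, and its effect on brain gene expression after ischaemic stroke. Stroke was modelled by transient middle cerebral artery occlusion (tMCAO), in which the artery feeding the striatum is blocked and then reopened.

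The 12 polyA+ libraries came from striatum of C57BL/6J mice and formed 4 groups of 3. The 3d-SN011 group and the SN011 group both carry the treatment label tMCAO+SN-011. The vehicle group had tMCAO with phosphate-buffered saline (PBS), and the sham group had a sham operation with PBS. The labels do not say what 3d stands for, and they give no dose, time after surgery, age or sex. There is no 3d group without SN-011 here, so whatever 3d marks cannot be told apart from SN-011 in comparisons with vehicle or sham. The labels also do not state that each library came from a separate animal, so p-values measure only the spread between these libraries.

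Metallothioneins are small, cysteine-rich proteins that bind zinc and copper and buffer free metal in the cell. Excess zinc activates the transcription factor MTF1, which binds metal response elements in the promoters of Mt1, Mt2 and Slc30a1, while glucocorticoids and cytokine signalling through STAT3 also raise Mt1 and Mt2. In the brain Mt1 and Mt2 are made largely by astrocytes, Mt3 by neurons and astrocytes, and Slc30a3 loads zinc into synaptic vesicles of glutamatergic neurons.

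The 3 metallothionein genes lie together on chromosome 8 in GRCm38, in the order Mt3, Mt2, Mt1. By GENCODE M21, Mt3 spans bases 94152607 to 94154146, Mt2 spans 94172664 to 94173568 and Mt1 spans 94179082 to 94180327, all on the plus strand. Mt2 ends 5513 bases before Mt1 starts, and Mt3 ends 18517 bases before Mt2 starts. Slc30a1 is on chromosome 1 (191906767 to 191913247, plus strand), Slc39a14 on chromosome 14 (70303469 to 70351425, minus strand) and Slc30a3 on chromosome 5 (31086106 to 31108237, minus strand). All 6 are protein-coding. Of Mt2's 588 exon bases, 73.5% are also covered by the antisense gene Gm45774, and 8.92% of the exon bases of Slc30a1 by the antisense gene 1700034H15Rik. Whether reads were counted by strand is not given in the sources used here, so reads of such pairs cannot be told apart.

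The bases just before the annotated start of Mt1, Mt2, Slc30a1 and Mt3 are shown because the first 3 are textbook MTF1 targets and their counts moved differently here. The sequences are RefSeq GRCm38.p6, plus strand, 5′ to 3′, and capitals mark the core of a metal response element, TGCACNC or TGCGCNC, on either strand. They cover chr8:94178839-94179081 (Mt1), chr8:94172368-94172617 (Mt2), chr1:191906531-191906766 (Slc30a1) and chr8:94152357-94152606 (Mt3).
Mt1: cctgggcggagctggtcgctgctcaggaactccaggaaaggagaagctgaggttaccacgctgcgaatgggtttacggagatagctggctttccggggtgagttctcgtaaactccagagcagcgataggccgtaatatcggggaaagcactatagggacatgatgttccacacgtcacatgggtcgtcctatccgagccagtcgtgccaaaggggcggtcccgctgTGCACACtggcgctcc
Mt2: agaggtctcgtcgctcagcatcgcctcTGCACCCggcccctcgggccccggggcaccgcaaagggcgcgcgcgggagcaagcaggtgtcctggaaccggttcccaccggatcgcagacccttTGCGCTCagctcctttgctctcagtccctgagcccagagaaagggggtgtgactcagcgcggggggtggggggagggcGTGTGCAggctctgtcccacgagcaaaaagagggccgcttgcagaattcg
Slc30a1: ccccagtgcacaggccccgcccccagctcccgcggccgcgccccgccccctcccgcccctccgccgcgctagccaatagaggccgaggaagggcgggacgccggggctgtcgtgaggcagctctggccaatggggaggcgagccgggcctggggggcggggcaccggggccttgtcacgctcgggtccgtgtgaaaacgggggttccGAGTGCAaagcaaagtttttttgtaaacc
Mt3: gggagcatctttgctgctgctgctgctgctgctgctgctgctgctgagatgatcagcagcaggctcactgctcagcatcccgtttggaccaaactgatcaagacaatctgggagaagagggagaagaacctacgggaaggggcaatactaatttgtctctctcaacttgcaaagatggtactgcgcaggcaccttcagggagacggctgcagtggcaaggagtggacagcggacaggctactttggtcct

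In the full RefSeq window of 300 bases, 250 before the RefSeq start and 50 after it, Mt2 held 4 such cores and Mt1 held 3. Slc30a1 held 2, Mt3 held 1, and the 2 windows of Slc30a3 held 1 and 0. Over 32851 windows of 27025 genes, 25.7% held at least 1 core, 7.11% at least 2, 1.97% at least 3 and 0.517% at least 4. The cores past the RefSeq start, which for Mt2 lies before the GENCODE start given above, are shown as 23-base sites at chr8:94179083-94179105 and chr8:94179101-94179123 (Mt1), chr8:94172614-94172636 (Mt2), chr1:191906803-191906825 (Slc30a1) and chr8:94152626-94152648 (Mt3).
Mt1, nearer site: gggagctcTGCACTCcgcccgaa
Mt1, farther site: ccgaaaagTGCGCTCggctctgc
Mt2: ttcgggtcGTGCGCAggcccagg
Slc30a1: tccgggccGAGCGCAgtcgccgc
Mt3: gacagcagTGCACACacacggag
These matches describe letters only and do not show that MTF1 binds there. The starts are annotated ones and were not measured here, so a site past the start may still lie before the start in use. Cores outside the windows were not counted, so the counts do not rank the promoters. Slc39a14 has no entry in the window table and is named only.

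Totals ranged from 15806076 to 18622053 counts per library. Levels below are CPM (each gene's share of the library's reads, on a per-million scale) with library sizes adjusted by the trimmed mean of M-values (TMM). A gene was called at an adjusted p under 0.05 over all 18537 genes tested with edgeR's quasi-likelihood test and Benjamini-Hochberg adjustment, the source of every adjusted p below except those credited to another test. The libraries of a group stood apart in places. Summed CPM over 10 striatal projection neuron markers was 316 to 1981 in 3d-SN011, 4217 to 7207 in SN011, 7055 to 7275 in vehicle and 6653 to 7346 in sham, and all 10 markers fell in 3d-SN011 against each other group. Of all genes, 57.1% were called against vehicle (28.9% higher), 57.6% against sham (29.8% higher) and 46.4% against SN011 (23.6% higher). By these sums, the libraries labelled 3d-SN011 were low in defining markers of the labelled tissue, though none was at 0. SN011 replicate 3 lay nearest to 3d-SN011 in that sum, at 4217. In bulk tissue, fewer cells of a type and less RNA per cell cannot be told apart.

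Mt1, Mt2, Mt3 and Slc39a14 rose in 3d-SN011 against vehicle, sham and SN011, by 1.83- to 8.46-fold, and the 3d-SN011 libraries lay above all libraries of the other group each time. Slc30a1 and Slc30a3 were not called in any comparison. In 3d-SN011 against vehicle, 4 of 6 members were called, all higher, where 57.1% of all genes were called and 28.9% were called higher. Against sham, 4 of 6 were called higher, where 57.6% of all genes were called and 29.8% higher. Against SN011, 4 of 6 were called higher, where 46.4% of all genes were called and 23.6% higher. The groups did not overlap for 59.4% of all genes against vehicle (29.5% with 3d-SN011 higher), 63.3% against sham (31.8% higher) and 50.3% against SN011 (24.6% higher). These comparisons share the 3d-SN011 libraries, so their agreement is not separate evidence. In SN011 against vehicle, SN011 against sham and vehicle against sham, 0 members were called, where 0.0162% (0.0108% higher), 0.113% (all of them higher) and 0% of all genes were called. At an unadjusted p under 0.05 those comparisons hold 2050, 2368 and 467 genes.

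**Figure D1:**
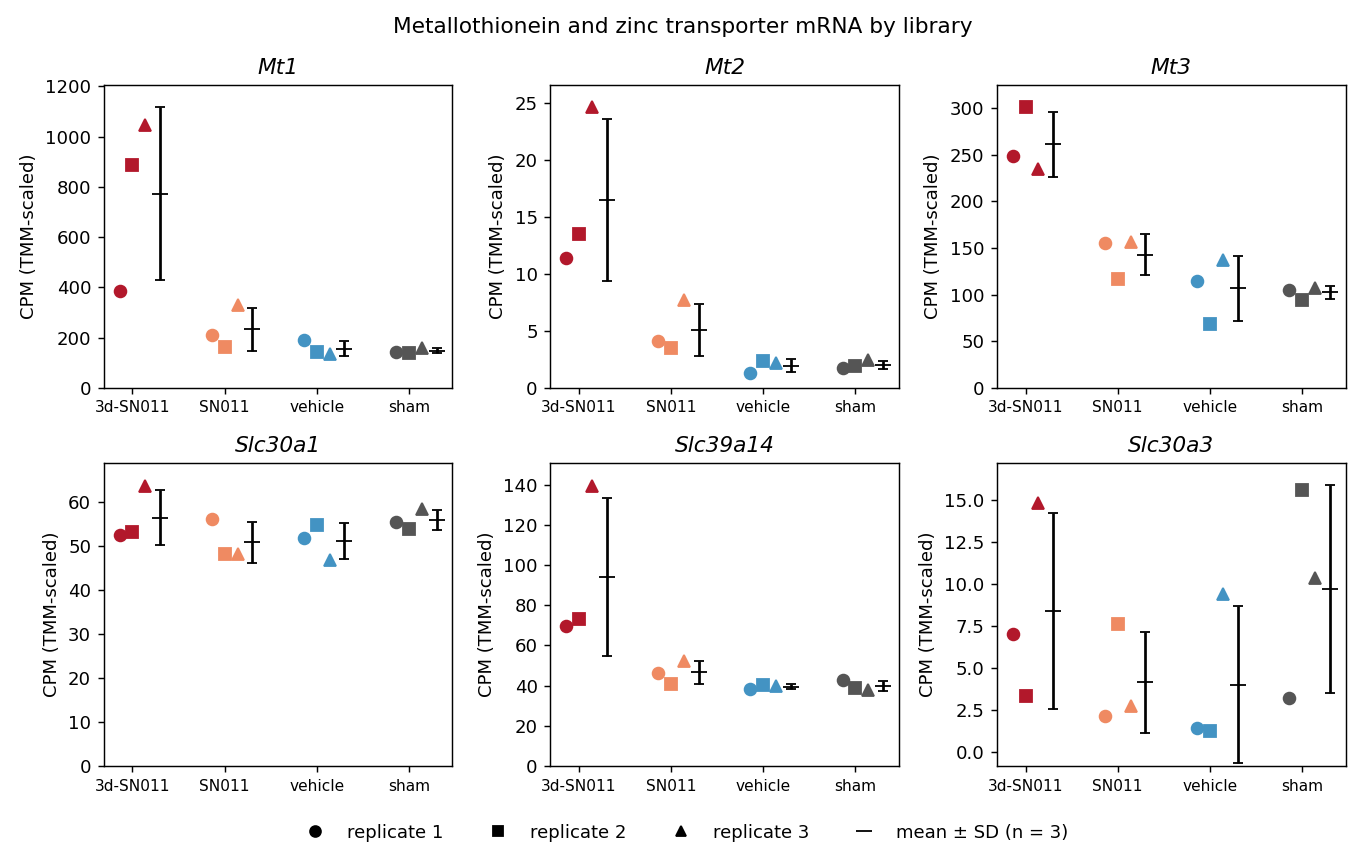
TMM-scaled CPM of the 6 genes in each of the 12 libraries, 1 panel a gene with its own linear axis; points are libraries and bars are the group mean ± SD (n = 3). Mt1, Mt2, Mt3 and Slc39a14 are highest in 3d-SN011 (Mt1 at 385 to 1044 CPM), Slc30a1 is level at 46.8 to 63.7 CPM, and Slc30a3 varies within every group.

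Mt1, the most abundant of the 6 per kilobase of exon, had 385, 887 and 1044 CPM in 3d-SN011 and 209, 162 and 329 CPM in SN011, against 191, 141 and 134 CPM in vehicle and 144, 138 and 159 CPM in sham. All 3 of the 3d-SN011 libraries exceeded all 9 others, and SN011 replicate 3 was the highest of those 9. The mean was 772 ± 344 CPM in 3d-SN011, 233 ± 86.1 CPM in SN011, 155 ± 30.8 CPM in vehicle and 147 ± 10.7 CPM in sham (SD, n = 3 each). Mt1 rose 4.97-fold in 3d-SN011 against vehicle, a log2 fold change of 2.31 ± 0.34 (SE; adjusted p = 0.000101). It rose 5.24-fold against sham (log2 2.39 ± 0.34, adjusted p = 7.87e-05) and 3.31-fold against SN011 (log2 1.73 ± 0.33, adjusted p = 0.00124).

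Mt2, the close paralog that lies next to Mt1 and is co-induced with it by zinc and glucocorticoids, had 11.4, 13.5 and 24.6 CPM in 3d-SN011 and 4.10, 3.45 and 7.73 CPM in SN011. It had 1.31, 2.34 and 2.19 CPM in vehicle and 1.70, 1.94 and 2.42 CPM in sham. Mt2 showed a stepwise order, with every 3d-SN011 library above every SN011 library and every SN011 library above all vehicle and sham libraries. The counts behind these values were small outside 3d-SN011, at 59 to 141 in SN011, 21 to 36 in vehicle and 28 to 40 in sham. Mt2 rose 8.46-fold in 3d-SN011 against vehicle (log2 3.08 ± 0.39, SE; adjusted p = 3.75e-05), the highest fold among the 6 genes in that comparison. It rose 8.15-fold against sham (log2 3.03 ± 0.38, adjusted p = 3.79e-05) and 3.23-fold against SN011 (log2 1.69 ± 0.36, adjusted p = 0.00215).

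Per kilobase of exon, Mt1 averaged 619.7 CPM in 3d-SN011 and Mt2 28.1 CPM. The exon length of Mt1 used here was 1246 bases, its whole annotated span, so its value is too low if spliced transcripts are shorter. In sham Mt1 averaged 118 CPM per kilobase and Mt2 3.43. The antisense gene Gm45774 that covers most of Mt2 had 18, 18 and 34 counts in 3d-SN011, 9, 8 and 10 in SN011, 3, 6 and 1 in vehicle and 2, 3 and 7 in sham. Its part in the low level of Mt2, or in the differences of Mt2 between groups, was not tested. The level of Mt2 should not be read beside Mt1, and the folds of Mt2 carry the same limit.

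Mt3, the metallothionein enriched in brain, had 249, 301 and 235 CPM in 3d-SN011 and 155, 117 and 156 CPM in SN011, against 114, 68.7 and 137 CPM in vehicle and 105, 94.4 and 107 CPM in sham. The 3d-SN011 libraries were the 3 highest, and they spread less around their mean than those of Mt1 did. Mt3 rose 2.45-fold in 3d-SN011 against vehicle (log2 1.29 ± 0.21, SE; adjusted p = 0.000251), 2.55-fold against sham (log2 1.35 ± 0.21, adjusted p = 0.000176) and 1.83-fold against SN011 (log2 0.87 ± 0.21, adjusted p = 0.00518).

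Whether the metallothioneins moved by unequal amounts was asked with the log2 ratio of their CPM inside each library. Mt2 over Mt3 was -4.43, -4.47 and -3.25 in 3d-SN011, against -6.32, -4.81 and -5.90 in vehicle and -5.86, -5.52 and -5.41 in sham. The 3d-SN011 ratios lay above all of those, by a mean of 1.63 on the log2 scale against vehicle and 1.55 against sham, with an exact two-sided permutation p of 0.1 each. That is the smallest p that 3 against 3 allows, and it became 0.4 after adjustment over 24 ratio tests. Mt1 over Mt3 was 0.63, 1.56 and 2.15 in 3d-SN011 and 0.46, 0.55 and 0.57 in sham, a difference of 0.92 (exact permutation p = 0.1, adjusted 0.4). In vehicle that ratio was 0.74, 1.04 and -0.03, which overlaps the 3d-SN011 libraries. Against SN011 all 3 ratios overlapped, with 3d-SN011 differing by 0.80 for Mt2 over Mt3 (exact permutation p = 0.3), 0.79 for Mt1 over Mt3 (p = 0.2) and -0.01 for Mt1 over Mt2 (p = 1). Mt1 over Mt2 also overlapped against vehicle (-0.76, exact permutation p = 0.3) and sham (-0.62, p = 0.2). In SN011, Mt1 over Mt2 lay below all vehicle (-0.75) and all sham libraries (-0.61). The exact permutation p was 0.1 each, adjusted 0.4. Mt2 over Mt3 in SN011 lay above sham (0.74, exact permutation p = 0.1, adjusted 0.4) but overlapped vehicle (0.82, p = 0.3). Mt1 over Mt3 in SN011 overlapped vehicle (0.07) and sham (0.13), with an exact permutation p of 0.9 each.

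Between SN011 and vehicle, SN011 libraries lay above all vehicle libraries for 2 members, Mt2 and Slc39a14, where 16.3% of all genes did not overlap and 9.01% did so with SN011 higher. Against sham the 3 metallothioneins did not overlap, where 25.6% of all genes did not and 12.8% did so with SN011 higher. Mt2 had the largest difference, a log2 fold change of 1.39 ± 0.38 against vehicle (SE; adjusted p = 0.189) and 1.33 against sham (adjusted p = 0.146). Mt1 differed by 0.59 ± 0.32 on the log2 scale against vehicle (adjusted p = 0.554) and Mt3 by 0.42 ± 0.21 (adjusted p = 0.511). Mt2 was past the threshold with DESeq2 (log2 1.40, adjusted p = 0.0248), without the count filter (1.39, adjusted p = 0.0130) and with limma voom quality weights (1.36, adjusted p = 0.0285). Without SN011 replicate 3 the difference from vehicle was 0.96 for Mt2 and 0.26 for Mt1. Vehicle against sham gave log2 fold changes of 0.08 for Mt1, -0.05 for Mt2 and 0.06 for Mt3, each with an adjusted p of 1. In that comparison 0 members were without overlap, where 13.2% of all genes had none (6.86% with vehicle higher).

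**Figure D2:**
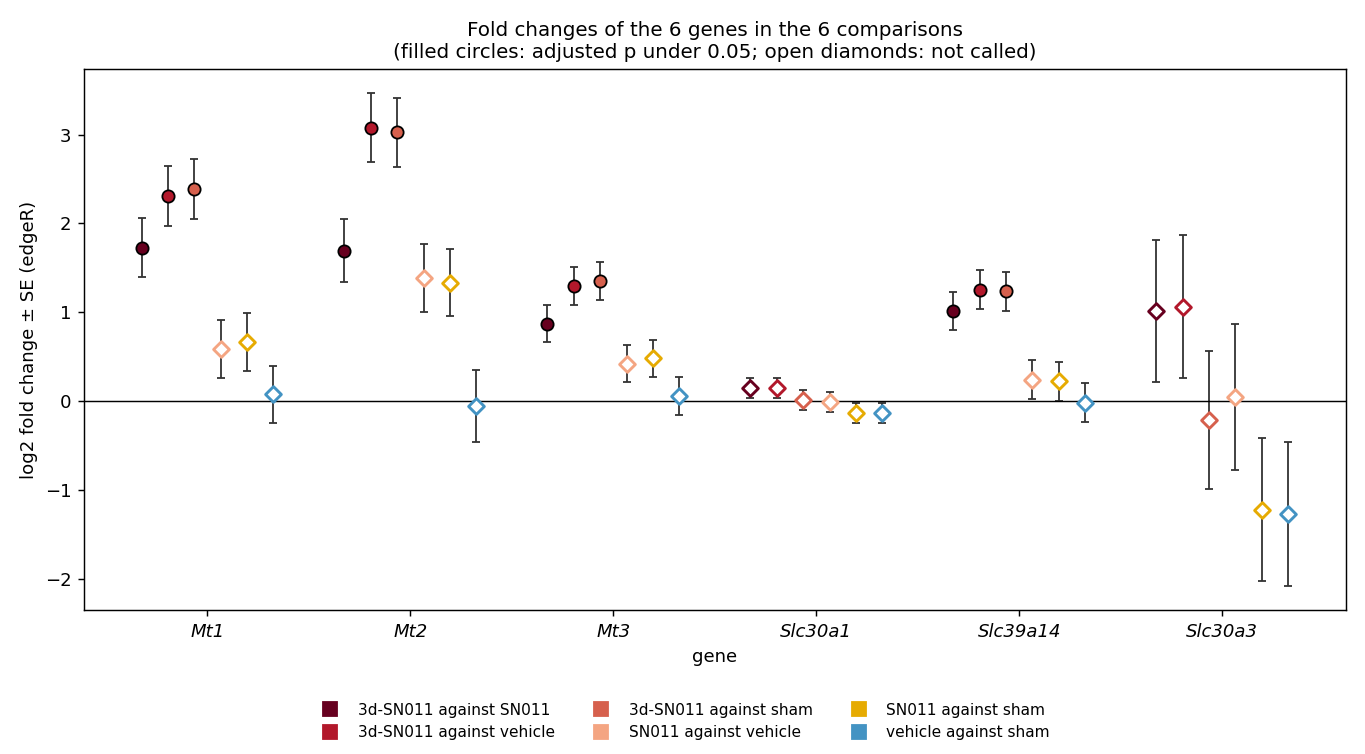
Log2 fold changes ± SE (edgeR) of the 6 genes in the 6 comparisons, the first-named group over the second; filled circles passed an adjusted p of 0.05 and open diamonds did not. Mt2 has the highest value (3.08 in 3d-SN011 against vehicle) and the values of Slc30a1 stay within 0.15 of zero.

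Marker lists of astrocytes and of microglia and macrophages were also higher in 3d-SN011. Beside the counts below, 28.9% of all genes were called higher in 3d-SN011 against vehicle, 29.8% against sham and 23.6% against SN011. Of 10 astrocyte markers, which include the astrocyte filament gene Gfap and the folate enzyme gene Aldh1l1, 9 rose in 3d-SN011 against vehicle, against sham and against SN011. Their summed CPM was 11432 to 16256 in 3d-SN011, 5434 to 9762 in SN011, 4694 to 5132 in vehicle and 5080 to 5322 in sham, and none was at 0. Against SN011 the count of 9 was 3 at its lowest under the other settings. All 10 microglia and macrophage markers rose in each of the 3d-SN011 comparisons, with a summed CPM of 3389 to 4656 in 3d-SN011, 468 to 1654 in SN011, 309 to 389 in vehicle and 337 to 379 in sham. SN011 replicate 3, highest of its group in Mt1 and Mt2, was also the highest of its group in astrocyte and microglia sums, at 9762 and 1654 CPM. Within 3d-SN011 the order differed. There replicate 3 was highest in Mt1 and Mt2 but lowest in both sums, at 11432 and 3389 CPM. Replicate 1 was lowest in Mt1 and Mt2 but highest in the microglia sum, at 4656 CPM. The part of either list in the metallothionein values was not tested.

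Other lists moved less evenly. Over all genes, 57.1% were called in 3d-SN011 against vehicle (28.9% higher), 57.6% against sham (29.8% higher) and 46.4% against SN011 (23.6% higher). Of 8 endothelial markers, 6 rose in 3d-SN011 against vehicle, 3 rose and 1 fell against sham, and 6 rose against SN011. Of 7 oligodendrocyte markers, 5 rose against vehicle, 4 against sham and 2 against SN011. Of 8 choroid plexus and ependyma markers, 2 rose and 5 fell against vehicle, 2 rose and 2 fell against sham, and 2 rose and 5 fell against SN011. The choroid falls against vehicle numbered 1 without 3d-SN011 replicate 1, 2 without replicate 3 and 6 without replicate 2. Of 5 red blood cell genes, 2 fell against vehicle, 0 against sham and 1 against SN011, and the count against vehicle was 1 to 3 over the left-out libraries. Of 6 neutrophil genes only 1 was tested, and it was not called. Under other settings up to 2 rose in 3d-SN011 against vehicle, 2 against sham and 3 against SN011. Mmp8, left out by the count filter, had 67, 7 and 77 counts in 3d-SN011 and at most 4 in any other library. The neutrophil sum was 3.06 to 6.73 CPM in 3d-SN011 and at most 1.12 CPM in any other library, with Ly6g at 0 in every SN011 and sham library and Retnlg at 0 in every SN011 library.

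Slc39a14 encodes ZIP14, an importer of zinc, iron and manganese. It had 69.7, 73.1 and 139 CPM in 3d-SN011 and 46.4, 40.8 and 52.4 CPM in SN011, against 38.1, 40.5 and 39.6 CPM in vehicle and 42.9, 38.9 and 37.9 CPM in sham. The 3d-SN011 libraries exceeded all others, and replicate 3 was far above the other 2. Slc39a14 rose 2.39-fold in 3d-SN011 against vehicle (log2 1.26 ± 0.22, SE; adjusted p = 0.000364), 2.36-fold against sham (log2 1.24 ± 0.22, adjusted p = 0.000390) and 2.02-fold against SN011 (log2 1.02 ± 0.22, adjusted p = 0.00242). Without 3d-SN011 replicate 3 the log2 values were 0.86 against vehicle, 0.84 against sham and 0.62 against SN011 (adjusted p = 0.00105), so the gene stayed called.

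That library also stood apart in glucocorticoid targets. Fkbp5, a chaperone of the glucocorticoid receptor and a standard target of it, had 58.1, 43.3 and 245 CPM in 3d-SN011, with 44.7 to 55.0 CPM in SN011, 46.8 to 49.1 CPM in vehicle and 43.4 to 44.5 CPM in sham. Replicate 3 of 3d-SN011 was far above the rest, replicate 1 was just above them and replicate 2 was level with sham. Sgk1, a kinase induced by glucocorticoids, had 217, 210 and 720 CPM in 3d-SN011. Its counts there were 4244, 4251 and 13368, with 1738, 1555 and 2873 in SN011. Vehicle had 3125, 2755 and 2230 counts and sham had 1377, 1290 and 1336. Summed over 10 glucocorticoid targets, 3d-SN011 replicate 3 reached 1978 CPM, where the other 11 libraries lay at 563 to 855 CPM. Replicates 1 and 2 of 3d-SN011 had 644 and 611 CPM, below the 772 to 855 CPM of vehicle. SN011 lay at 618 to 673 CPM and sham at 563 to 626 CPM. Of the 10, 5 rose and 1 fell in 3d-SN011 against vehicle, 6 rose and 1 fell against sham and 6 rose and 1 fell against SN011. Without replicate 3 the counts were 2 higher and 3 lower, 4 and 3, and 4 and 3 in the same order. With all libraries kept, 28.9%, 29.8% and 23.6% of all genes were called higher in that order. The part of these targets in Slc39a14 was not tested.

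**Figure D3:**
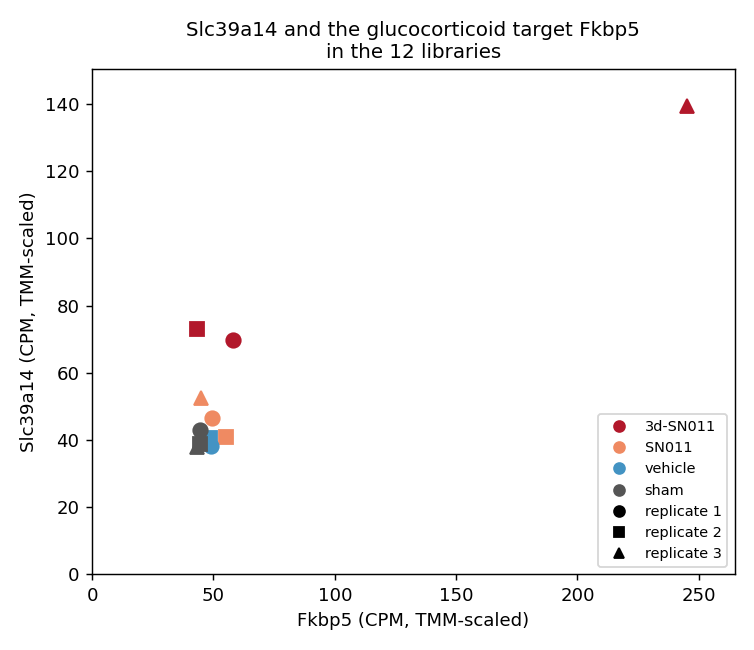
Slc39a14 against Fkbp5, both in TMM-scaled CPM on linear axes, 1 point a library, coloured by group and shaped by replicate. 3d-SN011 replicate 3 stands apart on both axes at 139 and 245 CPM, and the other 3d-SN011 libraries lie at 69.7 and 73.1 CPM of Slc39a14 with 58.1 and 43.3 CPM of Fkbp5.

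STAT3 targets and pathway genes were higher too. Of 10, 9 rose in 3d-SN011 against vehicle, 9 against sham and 8 against SN011. Their summed CPM was 782 to 910 in 3d-SN011, 311 to 521 in SN011, 268 to 330 in vehicle and 256 to 286 in sham. Socs3, the feedback inhibitor of cytokine receptors, had 40.5, 33.2 and 81.1 CPM in 3d-SN011 and 9.01, 4.91 and 17.6 CPM in SN011, against 1.56, 1.50 and 4.31 CPM in vehicle. Its log2 rise against vehicle was 4.39 ± 0.54 (SE; adjusted p = 3.27e-05). The median log2 change over the list was 3.50 against vehicle, where the median over all genes was 0.01. The share of all genes called higher in 3d-SN011 was 28.9% against vehicle, 29.8% against sham and 23.6% against SN011.

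Slc30a1 encodes ZnT1, the plasma membrane exporter that sheds excess zinc. It had 52.4, 53.3 and 63.7 CPM in 3d-SN011 and 56.2, 48.3 and 48.1 CPM in SN011, against 51.7, 54.8 and 46.8 CPM in vehicle and 55.6, 53.9 and 58.3 CPM in sham. The groups overlapped throughout, with the 12 libraries within 46.8 to 63.7 CPM. The log2 difference was 0.14 ± 0.11 in 3d-SN011 against vehicle (SE; adjusted p = 0.294), 0.01 ± 0.11 against sham (adjusted p = 0.924) and 0.15 ± 0.11 against SN011 (adjusted p = 0.292). A missed threshold does not show that the level was equal, and the part of MTF1 in any of these genes was not tested. Mtf1, which encodes the zinc-sensing factor named above, fell in 3d-SN011 to 32.4 ± 4.15 CPM, against 46.6 CPM in vehicle (log2 -0.52 ± 0.13, SE; adjusted p = 0.00392) and 42.7 CPM in sham.

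Slc30a3 encodes ZnT3, the synaptic vesicle zinc transporter. It had 7.06, 3.36 and 14.8 CPM in 3d-SN011 and 2.14, 7.60 and 2.74 CPM in SN011, against 1.44, 1.24 and 9.40 CPM in vehicle and 3.21, 15.6 and 10.3 CPM in sham. The values spread widely inside every group and all groups overlapped. The log2 difference was 1.06 ± 0.81 in 3d-SN011 against vehicle (SE; adjusted p = 0.280), -0.21 ± 0.78 against sham (adjusted p = 0.832) and -1.27 ± 0.81 in vehicle against sham (adjusted p = 1). Without vehicle replicate 3 the 3d-SN011 against vehicle value was 2.64 (adjusted p = 0.0208), the one setting of those tried that brought Slc30a3 past the threshold.

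Libraries high in Slc30a3 were also high in a marker of cortical glutamatergic neurons. Slc17a7, the vesicular glutamate transporter of cortical neurons, had 188, 33.5 and 118 CPM in 3d-SN011 and 53.0, 117 and 48.1 CPM in SN011, against 38.4, 14.6 and 253 CPM in vehicle and 58.5, 298 and 192 CPM in sham. The 6 libraries highest in Slc30a3 were the 6 highest in Slc17a7, with 117 to 298 CPM of Slc17a7 there and 14.6 to 58.5 CPM in the other 6. Over 10 cortical excitatory markers the summed CPM was 168 to 318 in 3d-SN011, 190 to 285 in SN011, 156 to 470 in vehicle and 206 to 541 in sham. The part of these markers in the values of Slc30a3 was not tested.

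**Figure D4:**
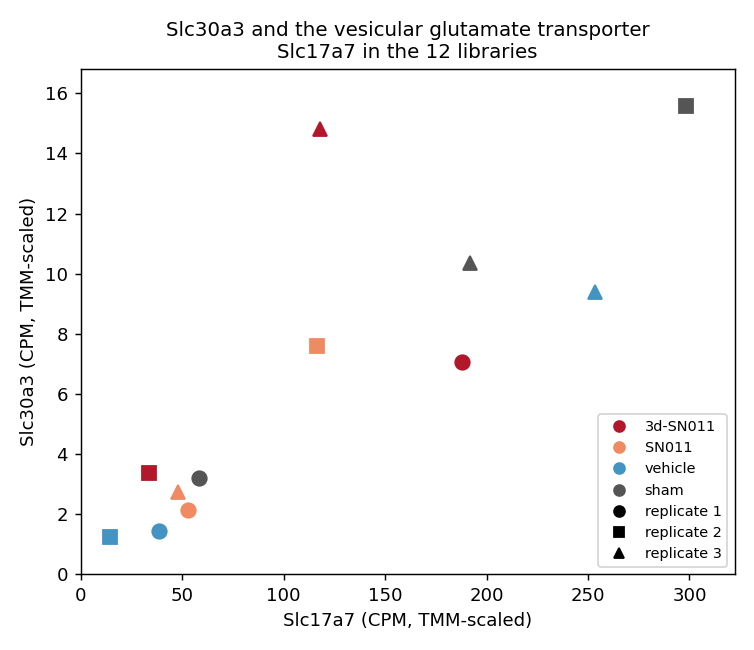
Slc30a3 against Slc17a7, both in TMM-scaled CPM on linear axes, 1 point a library, coloured by group and shaped by replicate. The 6 libraries above 7 CPM of Slc30a3 come from all 4 groups and are the 6 with at least 117 CPM of Slc17a7.

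The other zinc transporters, 20 of 21 of which were tested, moved in both directions. Of 7 other ZnT genes tested, most of which move zinc or manganese out of the cytosol, 1 rose and 4 fell in 3d-SN011 against vehicle, with a median log2 change of -0.37. Of 13 ZIP genes, which move metal into the cytosol, 5 rose and 3 fell with a median of 0.62. Against sham 1 ZnT gene rose and 4 fell, and 6 ZIP genes rose and 3 fell. Against SN011 1 ZnT gene rose and 3 fell, and 4 ZIP genes rose and 3 fell. Over all genes, 57.1% were called against vehicle (28.9% higher), 57.6% against sham (29.8% higher) and 46.4% against SN011 (23.6% higher). In SN011 against vehicle, SN011 against sham and vehicle against sham, edgeR called 0 of them. Slc30a8, a ZnT gene of pancreatic islets, had 0 counts in all 12 libraries, which allows up to 0.161 to 0.190 CPM at 3 counts per library.

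Slc39a1, the plasma membrane importer ZIP1, had 149, 141 and 128 CPM in 3d-SN011 and 48.8, 41.5 and 79.2 CPM in SN011, against 31.6, 32.7 and 38.3 CPM in vehicle and 34.6, 30.7 and 38.8 CPM in sham. It stood clear of every other group, with a log2 rise against vehicle of 2.03 ± 0.20 (SE; adjusted p = 1.54e-05), beside 1.26 for Slc39a14. Slc39a8, the zinc and manganese importer ZIP8 and nearest relative of Slc39a14, averaged 16.2 CPM in 3d-SN011, against 4.75 CPM in vehicle (log2 1.77 ± 0.25, adjusted p = 7.49e-05). Slc39a11 (log2 1.00), Slc39a6 (0.83) and Slc39a13 (0.62) completed the 5 ZIP genes that rose against vehicle.

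Slc39a10 fell to 67.8 ± 14.9 CPM in 3d-SN011, against 164 CPM in vehicle (log2 -1.27 ± 0.17, SE; adjusted p = 5.23e-05), and the plasma membrane ZIP genes Slc39a2 (-1.48) and Slc39a3 (-0.83) fell too. Among ZnT genes, Slc30a10, a manganese exporter, fell to 16.9 ± 1.59 CPM in 3d-SN011, against 39.9 CPM in vehicle (log2 -1.24 ± 0.13, adjusted p = 1.81e-05). Slc30a2 (-2.09), Slc30a4 (-0.64) and Slc30a9 (-0.37), the last a mitochondrial transporter, also fell. The counts of Slc30a2 were small, at 11, 24 and 11 in 3d-SN011 and 49, 50 and 59 in vehicle. Slc30a7, a transporter of the Golgi, was the only ZnT gene to rise against vehicle (log2 0.37 ± 0.12, adjusted p = 0.0159), and its call was lost without 3d-SN011 replicate 3.

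**Figure D5:**
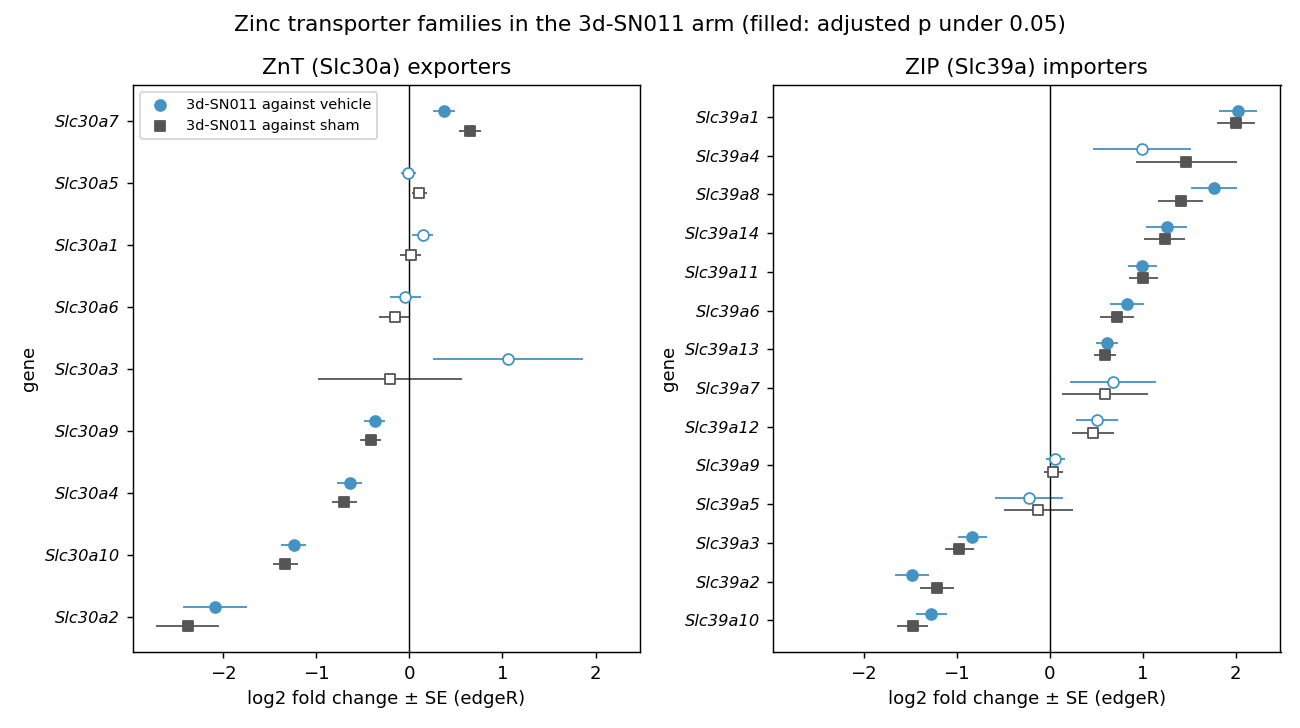
Log2 fold changes ± SE (edgeR) of the ZnT genes (left, Slc30a1 and Slc30a3 included) and ZIP genes (right, Slc39a14 included) in 3d-SN011 against vehicle (circles) and against sham (squares); filled symbols passed an adjusted p of 0.05. ZIP genes span both directions, from Slc39a2 at -1.48 to Slc39a1 at 2.03 against vehicle, and 4 ZnT genes fell.

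Copper handling genes were read beside the metallothioneins, which also bind copper. Of 10, 5 rose in 3d-SN011 against vehicle, 7 against sham and 5 against SN011, and none fell. In the same order, 28.9%, 29.8% and 23.6% of all genes were called higher. Atox1, the copper chaperone that feeds the copper pumps, averaged 45.0 CPM in 3d-SN011, against 14.3 CPM in vehicle (log2 1.65 ± 0.22, SE; adjusted p = 5.59e-05). Ccs, the chaperone that loads copper into superoxide dismutase, rose by 0.92 on the log2 scale against vehicle, and Cp, the copper-carrying ferroxidase ceruloplasmin, by 1.50. Of 4 metal-responsive or zinc-sensing genes tested, 0 rose and 2 fell in 3d-SN011 against vehicle, Mtf1 and Trpc6. Against sham 1 rose and 2 fell, and against SN011 0 rose and 2 fell. In the order vehicle, sham, SN011, 57.1%, 57.6% and 46.4% of all genes were called in either direction. Trpc6, a cation channel permeable to zinc, fell to 1.20 CPM in 3d-SN011, against 7.67 CPM in vehicle (log2 -2.67 ± 0.23, adjusted p = 1.22e-05).

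The genes whose pattern was most like each member were ranked by Pearson r of log2 CPM over the 12 libraries, among 12057 tested genes (mean of 5 CPM or more). These are descriptions, since libraries of a group share whatever set the group apart. For Mt1 they were Fam107a (r = 0.986), Phka1 and Kat2b, and for Mt2 Tspan4 (r = 0.990), C3ar1 and Pnpla7. For Mt3 they were Fam173a (r = 0.982), P3h4 and Pacsin3, and for Slc39a14 Pnpla2 (r = 0.991), Trafd1 and Msrb1. Slc30a1 had no gene above 0.9, with Nsun3 highest (r = 0.866), and Slc30a3 had 5, led by Sez6l (r = 0.922). Above 0.9 there were 782 genes for Mt1, 1396 for Mt2, 820 for Mt3 and 631 for Slc39a14. With group means taken off, Fam107a stayed among the 3 most like Mt1 (r = 0.943), Tspan4 among those of Mt2 (r = 0.919), Pnpla2 among those of Slc39a14 (r = 0.969) and Sez6l among those of Slc30a3 (r = 0.955).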

How the data were processed

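Striatal polyA+ RNA was extracted with Trizol and sequenced in pairs, per the labels' protocols. HISAT2 and featureCounts were run against mm10, as the submitters' processing notes record. Their versions, the annotation and any strand option are not stated there. Each deposited table holds raw read counts for every Ensembl gene of 1 library, which the authors left unnormalized as far as the values show. Replicate pairs were checked for repeats, and chi-square divided by degrees of freedom was 4.79 to 78.2, above sampling noise.

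Tests used edgeR 4.0.16 (R 4.3.3): filterByExpr with a minimum count of 10, TMM scaling and 1 quasi-likelihood fit of all 12 libraries with group as the only term, and a threshold of 0.05 on the Benjamini-Hochberg adjusted p. Each SE was taken as the log2 fold change divided by the root of F, in absolute size. Ratios used log2 CPM with a prior count of 2 and exact two-sided permutation tests (scipy 1.17.1). A further ratio, counted in the adjustment, is not reported here. Positions and exon lengths are from GENCODE M21 (GRCm38), and promoters from RefSeq GRCm38.p6. Alternatives were RLE scaling, DESeq2 1.42.0, no filter, only the 6 libraries compared, a replicate block, limma 3.58.1 voom with quality weights, a prior count of 0.5 and leaving out each library. The 6 members are named in every comparison. List genes are named where called, led by the 4 smallest adjusted p, any zinc transporter may be named, and the 3 genes most alike by r are given. Members and lists were chosen with earlier results of these data known. Counts of list genes under the alternatives, and the comparison of the 6 highest libraries in Slc30a3 and Slc17a7, were added after seeing the data. Plots were made in Python 3.11.15 (matplotlib 3.10.9).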

Additional observations from a re-analysis of the deposited data

How the results depend on the processing

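With 3 libraries a group, and a spread that is wider in the SN-011 groups, counts of calls in the small comparisons moved most. For vehicle against sham, where edgeR called 0 genes, DESeq2 called 3, the fit without a filter 5, voom with quality weights 32 and the 6 libraries alone 16, with 0 to 1 when each library was left out. For SN011 against vehicle the 3 genes called became 446 with DESeq2, 601 without a filter, 1179 with voom and 5 with the 6 libraries alone, with 0 to 513 over the left-out libraries. For SN011 against sham the 21 became 624, 775, 1875 and 7 in the same order, with 0 to 694. In both SN011 comparisons edgeR called 0 members, against 1 with DESeq2, 1 without a filter and 1 with voom in SN011 against vehicle, and 1, 1 and 2 against sham. The causes were not tested.

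Same-numbered libraries showed little common deviation (r from -0.293 to 0.143). With 3 libraries a group this check cannot exclude a shared batch or pairing, and the labels state none. With the replicate block, 19 genes were called in SN011 against vehicle and no member's call changed. The 4 members called in the 3d-SN011 comparisons were called under all 18 other settings, which include each left-out library. No called member fold changed direction. Slc30a3 in 3d-SN011 against vehicle was called in 1 setting only, without vehicle replicate 3. The exact test of the ratios cannot fall below p = 0.1 with 3 against 3, so its p says nothing about their stability.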
